A study of Mus musculus with 3 samples.

Results

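The collagens and the other extracellular matrix genes expressed by the non-neuronal cells of the mouse dorsal root ganglion (DRG) were examined as 1 set of 42 genes, chosen by name from the 31053 genes of the count matrices. All 42 had a row. They comprised 18 collagen chains, 6 laminin chains, the nidogens and perlecan, the elastic fibre proteins and fibulins, the small leucine-rich proteoglycans, fibronectin and the matricellular proteins, and the hyalectans versican and brevican. The cells came from the L3 and L4 DRGs of wild-type male C57BL/6J mice in postnatal week 13, with 1 library from naïve, untreated mice, 1 library from mice 7 days after spared nerve injury (SNI) of both hindlegs, and 1 library from mice 14 days after the same injury. Each library pooled the 8 DRGs of 2 mice, so individual animals could not be separated, no condition had a replicate, and no p-value is given. The ganglia were dissociated with collagenase, dispase and mechanical force, and polyadenylated RNA was captured in droplets with 3′ chemistry, so the values below are levels of RNA in dissociated cells and say nothing of the protein matrix.

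Collagens are trimers of alpha chains. Types I, III, V, XI and XXVII form fibrils, whereas type IV forms the network of basement membranes together with laminin trimers, nidogens and perlecan. In peripheral ganglia the capsule and the connective tissue between the cells are rich in fibrillar collagen, while Schwann cells, satellite glial cells (SGCs), which wrap neuronal cell bodies, and blood vessels each rest on a basement membrane. Matricellular proteins such as tenascin-C and periostin are matrix components that act mainly on cell behaviour and are known to appear in tissue under repair.

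Cells in which 500 genes or more were detected and no more than 20% of the UMIs (unique molecular identifiers, 1 per captured mRNA molecule) were mitochondrial were assigned to a class from 57 marker genes, none of which is a matrix member. The libraries held 3748, 3281 and 4908 barcodes in the order naïve, 7 days and 14 days, in which all values are given, and 23107376, 22343246 and 36550911 UMIs. After the filter and the removal of 90 doublets, 3123, 2650 and 3799 cells remained, with medians of 3059, 3972 and 4174 UMIs. The naïve library shared 1 cell barcode with the 7-day library and 6 with the 14-day library, and the injured libraries shared 2. SGC-like cells numbered 653, 381 and 484, myelinating Schwann-like cells 1224, 1045 and 1485, non-myelinating Schwann-like cells 160, 85 and 184, fibroblast-like cells 50, 49 and 120, mural-like cells 127, 104 and 176, and endothelial-like cells 296, 207 and 330. Immune-like cells (119, 277 and 374) and neuron-like cells (128, 224 and 149) served for comparison, and 1141 cells fitted no class. The cells were also clustered without regard to the classes, and the clusters were named from the same markers. Of the non-myelinating Schwann-like cells 73.9% fell into clusters of the same name, against at least 99.2% for each of the other 7 classes. By this share that class is the least distinct. Conversely, 85.7% of the cells in non-myelinating Schwann clusters had been given that class, against 66.3% for fibroblast and 67.8% for SGC clusters. The non-myelinating Schwann-like class also carried the SGC marker Fabp7 at 1325, 1450 and 1099 CPM. CPM is the number of UMIs of a gene per 1000000 UMIs of the class. The fibroblast-like class has few cells in the naïve and 7-day libraries, and 16, 7 and 21 of its cells lay near the class boundary.

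The chains of type IV collagen are encoded head to head with overlapping 5′ ends, and the data on their ratio below are read against the sequence around their starts. Col4a1 lies on the minus strand and Col4a2 on the plus strand of chromosome 8, and their RefSeq promoter windows on GRCm38.p6, which run from 250 bases before to 50 bases after each start, are chr8:11312777-11313076 (minus strand) and chr8:11312555-11312854 (plus strand). The 78 bases in capitals are shared by both windows, each read 5′ to 3′ on its own strand.
Col4a1: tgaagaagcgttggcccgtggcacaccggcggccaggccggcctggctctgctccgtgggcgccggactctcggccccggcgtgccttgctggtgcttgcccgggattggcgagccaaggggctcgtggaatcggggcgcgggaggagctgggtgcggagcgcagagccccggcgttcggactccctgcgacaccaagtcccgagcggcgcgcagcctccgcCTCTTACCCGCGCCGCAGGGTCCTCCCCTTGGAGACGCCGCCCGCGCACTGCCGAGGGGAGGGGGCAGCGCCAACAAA
Col4a2: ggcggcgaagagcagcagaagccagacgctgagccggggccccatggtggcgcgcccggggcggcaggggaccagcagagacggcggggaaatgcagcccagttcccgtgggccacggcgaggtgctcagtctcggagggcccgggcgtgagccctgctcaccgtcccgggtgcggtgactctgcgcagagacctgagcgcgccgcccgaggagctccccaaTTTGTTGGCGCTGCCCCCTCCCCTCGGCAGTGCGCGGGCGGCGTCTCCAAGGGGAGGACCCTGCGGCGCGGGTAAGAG

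Tnc and Postn, which encode tenascin-C and periostin, were among 7 members at least 2-fold higher in non-myelinating Schwann-like cells at 14 days. They were also the only members with the motif TATATAA in a window. Of the same 7, Col1a1 and Col5a2 had no window, and Col18a1, Col6a1 and Ogn had windows without this motif. Tnc and Postn have more than 1 annotated start in RefSeq, and only the window that holds the motif is printed for each. The windows below are chr4:64046887-64047186 (minus strand) for Tnc and chr3:54360857-54361156 (plus strand) for Postn, and the capitals mark the motif TATATAA, which begins 29 bases before the start of Tnc and 28 bases before that of Postn.
Tnc: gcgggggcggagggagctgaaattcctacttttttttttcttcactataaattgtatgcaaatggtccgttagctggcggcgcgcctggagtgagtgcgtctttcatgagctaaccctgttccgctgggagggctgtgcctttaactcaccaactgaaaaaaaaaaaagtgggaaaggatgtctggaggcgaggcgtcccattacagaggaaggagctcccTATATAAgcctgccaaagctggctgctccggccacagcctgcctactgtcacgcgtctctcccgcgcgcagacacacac
Postn: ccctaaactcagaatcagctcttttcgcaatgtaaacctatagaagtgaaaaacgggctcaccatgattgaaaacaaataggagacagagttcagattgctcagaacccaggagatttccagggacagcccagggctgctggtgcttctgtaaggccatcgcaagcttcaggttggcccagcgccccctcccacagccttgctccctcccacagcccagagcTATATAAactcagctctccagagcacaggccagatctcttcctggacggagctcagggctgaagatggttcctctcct

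Both strands were searched in the 37 windows of the 31 members that had at least 1, and in all 32851 windows. TATATAA was found in 2 of the 37, those of Tnc and Postn printed above, and in 3.24% of all windows. The motif CCAAT was present in 13 of the 37 and in 37.4% of all windows. GGGCGG was present in 25 of the 37, from 23 members, and in 35.7% of all windows. These matches describe letters in the windows and were not tested against the RNA levels.

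The members made up 5.46%, 6.48% and 6.28% of the UMIs of fibroblast-like cells, which amounts to 54630, 64793 and 62772 CPM. The other classes held far less, with 12666, 13506 and 15697 CPM in non-myelinating Schwann-like cells, 11212, 12684 and 12167 CPM in myelinating Schwann-like cells and 10034, 10161 and 10052 CPM in SGC-like cells. Mural-like cells had 9538, 9098 and 9384 CPM and endothelial-like cells 6321, 5995 and 5759 CPM. Immune-like cells, which make little interstitial matrix of their own, held 544, 631 and 905 CPM, and the part of free RNA from broken cells in the values of the other classes was not tested beyond this comparison. Because glia are many and fibroblast-like cells few, the classes contributed differently to the total. SGC-like cells held 39.7%, 27.8% and 21.6% of the member UMIs in assigned cells, myelinating Schwann-like cells 34.1%, 43.9% and 37.7%, and fibroblast-like cells 7.63%, 11.2% and 19.6%. SGC-like cells were 20.9%, 14.4% and 12.7% of all cells in these libraries, and fibroblast-like cells 1.60%, 1.85% and 3.16%, so the shares of UMIs follow the cells captured as well as the levels per cell. Fewer cells of a class in the tissue and fewer cells recovered by dissociation cannot be told apart.

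**Figure D1:**
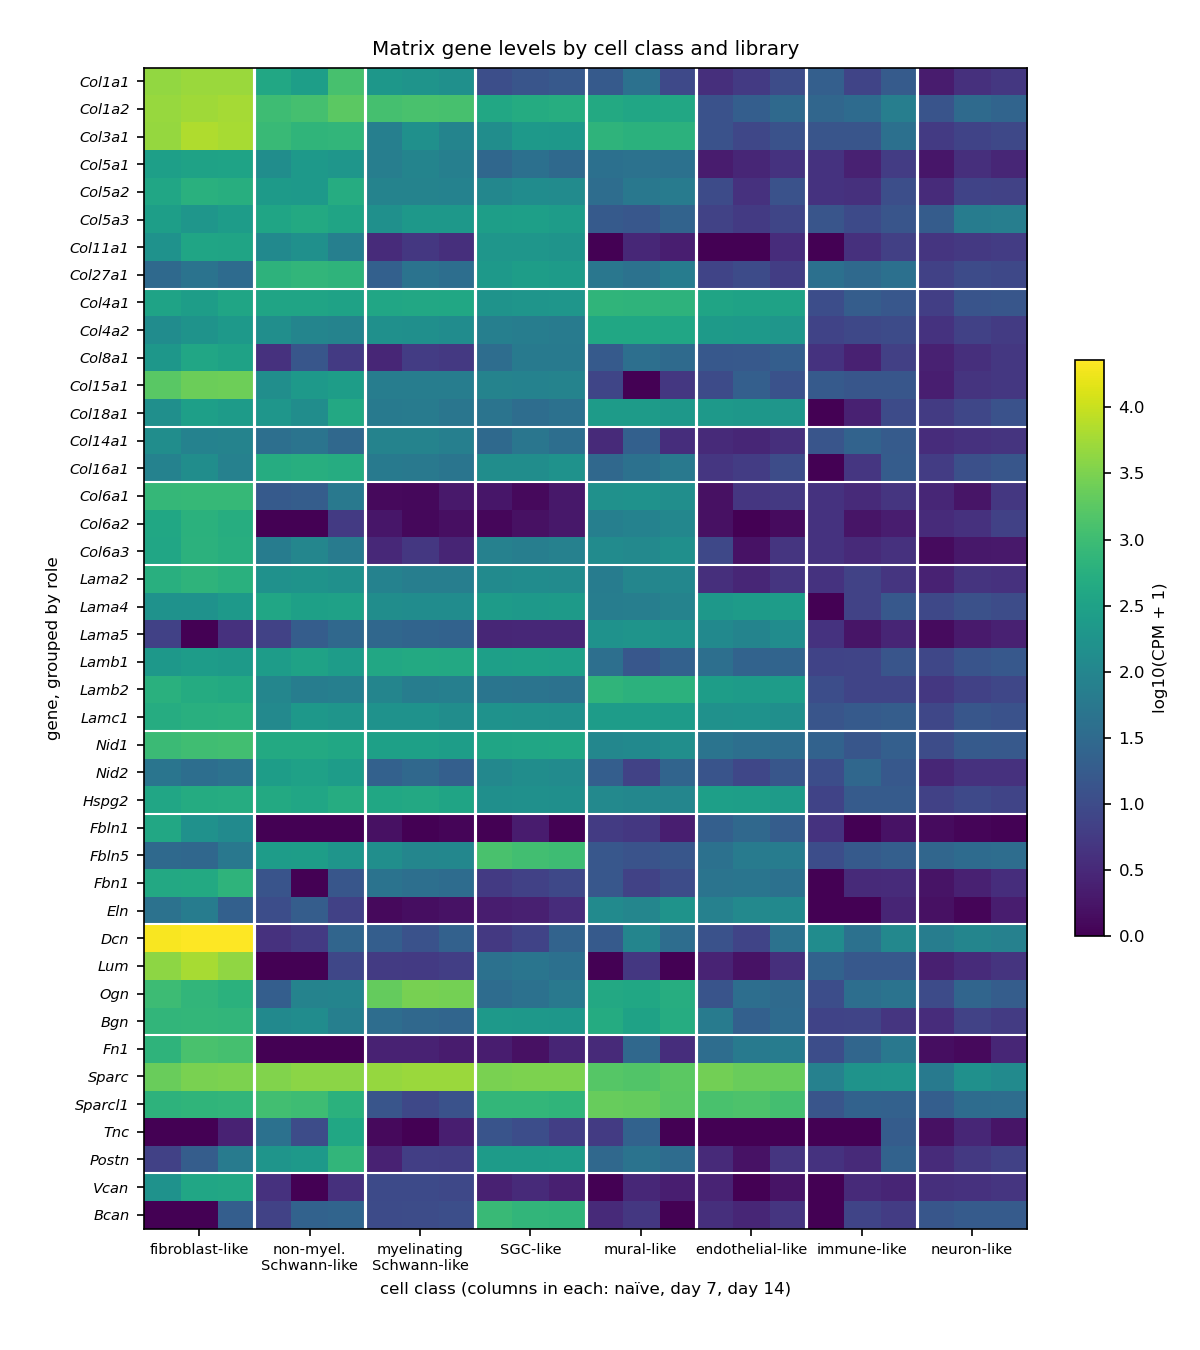
Level of each of the 42 members, as log10 of CPM plus 1, in 8 marker-based classes, each with the naïve, 7-day and 14-day library side by side. Rows are ordered by role. The fibroblast-like columns carry the highest values of most fibrillar collagens and small leucine-rich proteoglycans, Sparc is high in all classes apart from immune-like and neuron-like cells, and Bcan and Fbln5 stand out in SGC-like cells.

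Most members were highest in 1 class throughout. The genes named most often below lie on mm10 in GENCODE vM21 at chr10:97479609-97518143 (Dcn), chr11:94936224-94953042 (Col1a1), chr6:4504814-4541544 (Col1a2), chr1:45311538-45349706 (Col3a1), chr13:49608046-49624501 (Ogn), chr12:101746565-101819055 (Fbln5), chr3:87987531-88000230 (Bcan), chr4:63959785-64047015 (Tnc) and chr3:54361109-54391037 (Postn). Of the 42, 35 had their highest CPM in the same class in all 3 libraries, against 54.6% of all genes with at least 30 UMIs. Fibroblast-like cells held 20 of them (background 4.19%), mural-like cells 5 (5.24%), non-myelinating Schwann-like cells 5 (2.4%), myelinating Schwann-like cells 3 (4.77%), SGC-like cells 2 (3.34%) and endothelial-like cells 0 (7.55%), as did immune-like (9.46%) and neuron-like cells (17.6%). The 7 members whose highest class varied were Col11a1, Col18a1, Col14a1, Hspg2, Eln, Tnc and Postn. For 34 members the range over the libraries in the highest class lay apart from that in the next class, and for Col5a2 and the 7 variable members the ranges overlapped.

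Among the fibrillar collagens, the chains of types I and III were highest in fibroblast-like cells. Col3a1, which encodes the single chain of type III collagen, had 4652, 6769 and 6239 CPM there, and Col1a2, the alpha-2 chain of type I collagen, 4929, 5435 and 5880 CPM. Col1a1, the alpha-1 chain, had 4525, 5102 and 4973 CPM in the same cells. The mean of Col1a1 over the libraries, which differ in condition, was 4867 ± 302 CPM (SD, n = 3), 7.62 times the mean in the next class, the non-myelinating Schwann-like cells. Other members of this group belonged to glia. Col27a1, the chain of a fibrillar collagen known from cartilage, was highest in non-myelinating Schwann-like cells with 645, 741 and 683 CPM, as was Col5a3, a chain of the fibril-regulating type V collagen, with 359, 448 and 353 CPM there and 280, 284 and 256 CPM in SGC-like cells. Col11a1 was at 194, 192 and 182 CPM in SGC-like cells and at most 4.07 CPM in myelinating Schwann-like cells. In SGC-like cells the fibrillar chains therefore ranged from Col1a2 with 414, 489 and 512 CPM to Col1a1 with 10.2, 12.9 and 15.4 CPM.

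Type I collagen is usually a trimer of 2 alpha-1 chains and 1 alpha-2 chain, and UMIs of 3′ ends need no correction for transcript length. Capture of 3′ ends can differ between genes and was not tested, so a ratio between chains is read across classes rather than as a ratio of molecules. In fibroblast-like cells the ratio of Col1a1 to Col1a2 UMIs was 0.918, 0.939 and 0.846. It was 0.405, 0.23 and 0.665 in non-myelinating Schwann-like cells and 0.165, 0.136 and 0.127 in myelinating Schwann-like cells. In SGC-like cells it was 0.0247, 0.0263 and 0.0301, from 48, 45 and 66 Col1a1 UMIs against 1946, 1710 and 2194 Col1a2 UMIs. The 4 classes kept this order in the naïve and injured libraries alike, and their counting intervals did not overlap within a library.

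**Figure D2:**
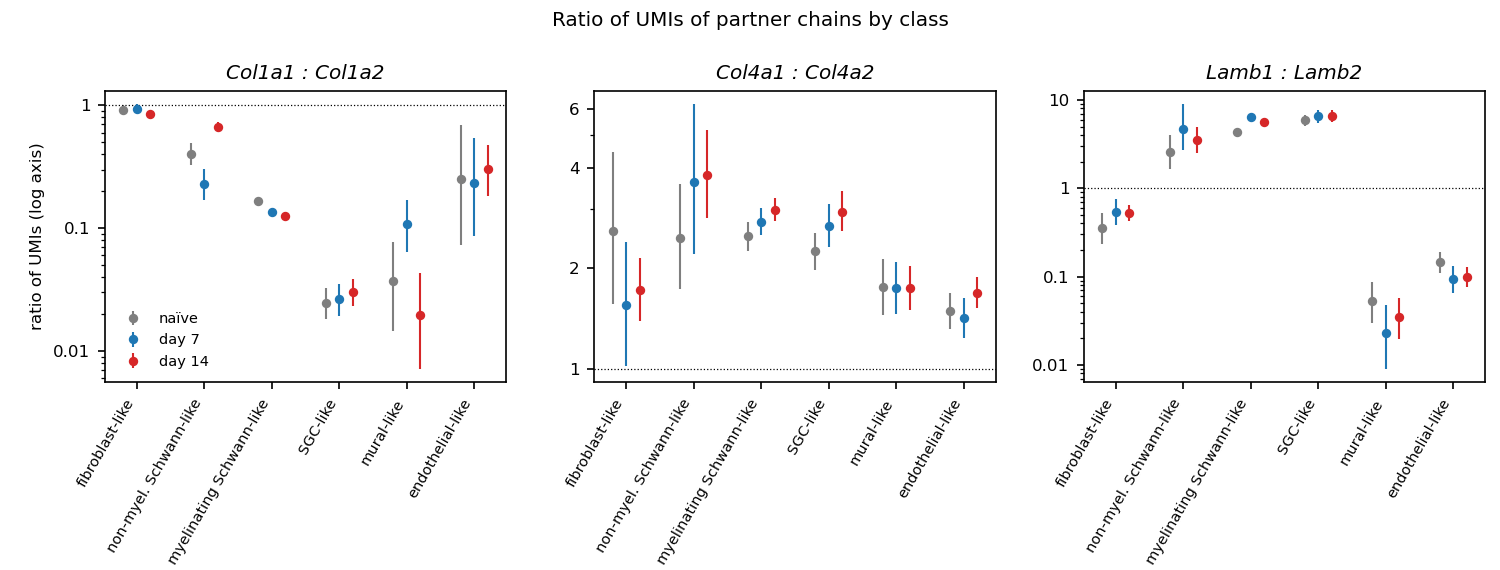
Ratio of UMIs between partner chains, on a log axis, for Col1a1 to Col1a2, Col4a1 to Col4a2 and Lamb1 to Lamb2 in 6 classes and 3 libraries. Points are ratios and bars exact 95% counting intervals. The type I ratio falls from 0.918 in naïve fibroblast-like cells to 0.0247 in naïve SGC-like cells, the type IV ratio stays above 1 in all classes, and the laminin beta ratio lies above 1 in glia and below 1 in mural-like, endothelial-like and fibroblast-like cells.

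The basement membrane and network collagens were spread more widely. Col4a1, whose product forms the type IV network with that of Col4a2, was highest in mural-like cells (696, 690 and 647 CPM), and the Schwann-like, fibroblast-like and endothelial-like classes lay between 266 and 407 CPM. In SGC-like cells it had 172, 187 and 192 CPM. The ratio of Col4a1 to Col4a2 UMIs was 1.75, 1.74 and 1.74 in mural-like cells and 1.49, 1.41 and 1.69 in endothelial-like cells, whereas it was 2.24, 2.68 and 2.95 in SGC-like cells and 2.49, 2.76 and 2.99 in myelinating Schwann-like cells. The vascular classes thus had a lower ratio than these glial classes in each library, while the genes start within the windows printed above, which share 78 bases. In the naïve library the counting intervals of mural-like (1.45–2.13) and SGC-like cells (1.98–2.55) overlapped. The gene bodies of Col4a1 and Col4a2 also overlap on opposite strands, and strand use in the authors' counting is not given in the sources used here. Col15a1, a chain of a collagen that links basement membranes to fibrils, was largely in fibroblast-like cells with 1775, 2407 and 2518 CPM, which was 10.7 times the mean of the next class. Col8a1, a network collagen chain, had 199, 374 and 326 CPM in fibroblast-like cells. Col18a1, the precursor of endostatin, was at 242, 242 and 208 CPM in mural-like cells, 218, 199 and 194 CPM in endothelial-like cells and 197, 137 and 421 CPM in non-myelinating Schwann-like cells, so its highest class changed between libraries. Of the fibril-associated collagens, Col16a1 was highest in non-myelinating Schwann-like cells at 499, 540 and 505 CPM, and Col14a1 did not exceed 138 CPM in any class.

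Type VI collagen is assembled from alpha-1, alpha-2 and alpha-3 chains into beaded filaments. All of its chains were highest in fibroblast-like cells, with 800, 838 and 829 CPM for Col6a1, 397, 608 and 522 CPM for Col6a2 and 373, 635 and 536 CPM for Col6a3. Mural-like cells also held all 3 chains, with 162, 167 and 143 CPM for Col6a1 and 127, 110 and 146 CPM for Col6a3. SGC-like cells carried Col6a3 alone at 82.7, 70.9 and 80.7 CPM, while Col6a1 and Col6a2 each stayed under 1 CPM there. In UMIs these were 389, 248 and 346 of Col6a3 beside 4, 1 and 4 of Col6a1. Col6a3 in immune-like cells was at 3.28, 2.32 and 3.11 CPM.

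The laminin chains differed between glial and vascular classes. Lama2, the alpha chain of the laminin of Schwann cell basement membranes, was highest in fibroblast-like cells (554, 694 and 573 CPM) and was present in SGC-like cells with 122, 129 and 127 CPM. Lama5, a laminin alpha chain of vessels, was highest in mural-like cells (167, 177 and 166 CPM), followed by endothelial-like cells (114, 90.5 and 129 CPM), and lay at or under 2.10 CPM in SGC-like cells. SGC-like cells accordingly held 574, 450 and 543 UMIs of Lama2 beside 9, 7 and 9 of Lama5, and endothelial-like cells 5, 3 and 10 UMIs of Lama2 beside 201, 143 and 354 of Lama5. The beta chains also differed between these classes. Lamb1 was highest in myelinating Schwann-like cells (402, 443 and 421 CPM) and Lamb2 in mural-like cells (719, 627 and 624 CPM). The ratio of Lamb1 to Lamb2 UMIs was 5.89, 6.54 and 6.61 in SGC-like cells and 4.28, 6.34 and 5.61 in myelinating Schwann-like cells. In mural-like cells it was 0.0523, 0.0227 and 0.0347, and in endothelial-like cells 0.145, 0.0946 and 0.0988. Lama4, an alpha chain shared by vessels and nerve, was highest in non-myelinating Schwann-like cells (378, 297 and 308 CPM), and Lamc1, the gamma chain common to most laminins, in fibroblast-like cells (493, 550 and 587 CPM).

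Among the linkers of the basement membrane, Nid1, which encodes nidogen-1, was highest in fibroblast-like cells (933, 1041 and 1076 CPM), and Nid2, which encodes nidogen-2, in non-myelinating Schwann-like cells (270, 307 and 256 CPM). The ratio of Nid1 to Nid2 UMIs was 19.4, 28.9 and 24.9 in the former class and 1.67, 1.45 and 1.51 in the latter, with 14.3, 10.4 and 13.2 in myelinating Schwann-like and 3.37, 2.81 and 3.03 in SGC-like cells. Hspg2, the gene of the heparan sulphate proteoglycan perlecan, had no preferred class, with 379, 482 and 491 CPM in fibroblast-like, 448, 380 and 499 CPM in non-myelinating Schwann-like and 390, 421 and 352 CPM in myelinating Schwann-like cells.

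SGC-like cells were set apart by fibulin-5 and brevican. Fbln5, whose product is needed for the assembly of elastic fibres, had 1276, 1091 and 1002 CPM there, 4.76 times the mean of the next class, the non-myelinating Schwann-like cells. Bcan, a hyaluronan-binding proteoglycan best known from the perineuronal matrix of the brain, had 893, 728 and 710 CPM, and its mean was 43.6 times that of the next class. Elastin itself (Eln) stayed at or under 2.57 CPM in SGC-like cells and was found in mural-like (120, 99.8 and 172 CPM) and endothelial-like cells (80.6, 110 and 118 CPM). Fbln1 and Fbn1, which encode fibulin-1 and the microfibril protein fibrillin-1, were highest in fibroblast-like cells, with 415, 158 and 120 CPM for Fbln1 and 421, 437 and 683 CPM for Fbn1.

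The small leucine-rich proteoglycans made up 49.1%, 46.9% and 45.1% of the member UMIs of fibroblast-like cells. Dcn, which encodes the collagen-binding proteoglycan decorin, was the most abundant member in any class with 20900, 22817 and 22702 CPM in fibroblast-like cells, and the next class by mean was the immune-like cells with 131, 41.8 and 106 CPM. Lum, the gene of the fibril-spacing proteoglycan lumican, followed the same pattern with 4207, 6071 and 4286 CPM in fibroblast-like cells. Bgn, which encodes biglycan, had 752, 775 and 727 CPM there and 473, 318 and 494 CPM in mural-like cells. Ogn, which encodes osteoglycin, departed from this pattern. It was highest in myelinating Schwann-like cells with 2090, 2946 and 2845 CPM, 3.38 times the mean of the fibroblast-like cells, which had 981, 730 and 618 CPM.

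Sparc, whose product SPARC binds collagen and modulates its assembly, was the most abundant member in SGC-like (2988, 3151 and 3213 CPM), myelinating Schwann-like (4587, 4954 and 4949 CPM), non-myelinating Schwann-like (3472, 4031 and 4005 CPM) and endothelial-like cells (2706, 2325 and 2231 CPM). Its mean in the highest class was 1.26 times that in the next, whereas immune-like cells had 81.9, 174 and 179 CPM. Its relative Sparcl1 was the most abundant member of mural-like cells in the naïve and 7-day libraries (2210, 2114 and 1780 CPM), and Sparc, with 1639, 1511 and 1843 CPM, was above it at 14 days. In endothelial-like cells Sparcl1 was at 1254, 1359 and 1146 CPM, and in non-myelinating Schwann-like cells at 1090, 1029 and 614 CPM. In contrast, it was at or under 13.3 CPM in myelinating Schwann-like cells, which hold the highest level of Sparc. Fn1, the gene of fibronectin, had 692, 1302 and 1199 CPM in fibroblast-like cells and at most 1.87 CPM in any SGC-like or myelinating Schwann-like sample. Vcan, the gene of the large hyaluronan-binding proteoglycan versican, had 169, 374 and 410 CPM in fibroblast-like cells and at most 8.59 CPM in the other 5 described classes. Postn was at 242, 241 and 254 CPM in SGC-like cells, and Tnc reached 12.8 CPM there.

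The comparison of the injured libraries with the naïve library asked whether the matrix genes of each class differ after SNI. Both injured libraries were set against the same naïve library, so their ratios are not independent. A member was counted as higher or lower if its CPM, with 1 CPM added, differed at least 2-fold in the same direction at 7 and 14 days, among genes with at least 30 UMIs in the class. The ratios given are of CPM without the addition, and their intervals are exact conditional binomial intervals at 95% that cover counting error only.

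**Figure D3:**
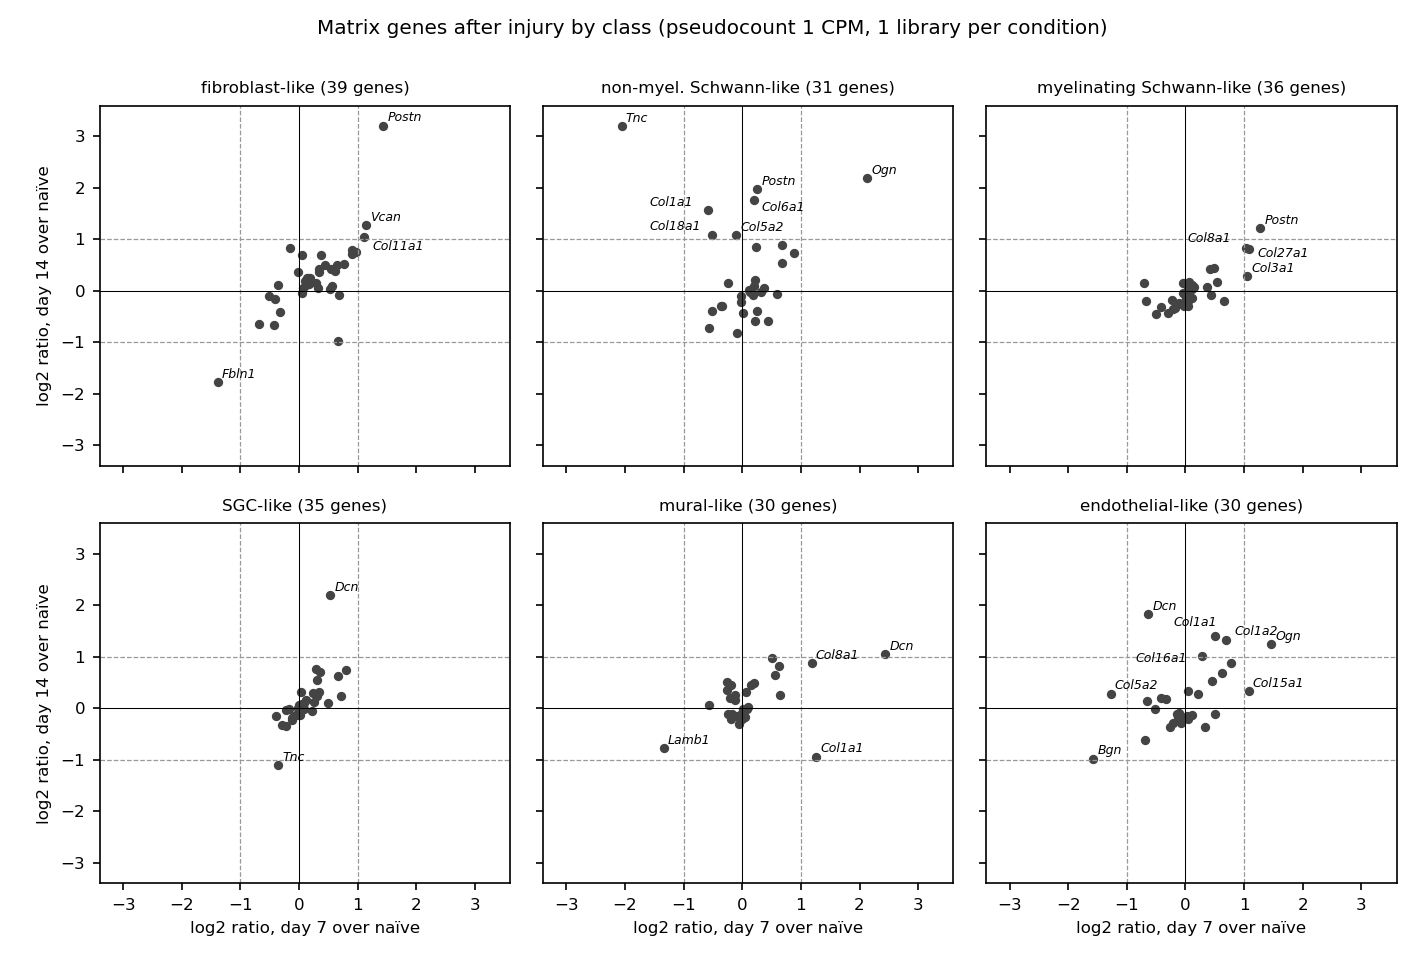
Log2 ratio of CPM, with a pseudocount of 1 CPM, at 14 days over naïve (vertical axis) against 7 days over naïve (horizontal axis), 1 panel for each of 6 classes and 1 point for each member with at least 30 UMIs in the class. Dashed lines mark 2-fold. Most points lie inside the lines, the non-myelinating Schwann-like panel has a group of members above the upper line at 14 days alone, and the axes share the naïve library.

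In SGC-like cells no member was past 2-fold on both days, with 0 of 35 higher (0.266% of all genes) and 0 of 35 lower (0.16%). The summed members were at 1.01 (0.999–1.03) times the naïve level at 7 days and 1.002 (0.989–1.02) times at 14 days. Within this flat total Fbln5 and Bcan, the members that were highest in SGC-like cells, lay below the naïve level, whereas Sparc, the most abundant, did not. Fbln5 was at 0.855 times the naïve level at 7 days and 0.786 times at 14 days, and Bcan at 0.815 and 0.795 times. Col3a1 was at 138, 218 and 213 CPM, which is 1.58 (1.42–1.76) and 1.55 (1.40–1.71) times, and Col8a1 at 34.7, 60.9 and 59.0 CPM, which is 1.76 (1.43–2.17) and 1.70 (1.39–2.09) times. None of these reached 2-fold. With a stricter cell filter, which left 16 SGC-like cells at 14 days, the log2 ratio at 14 days was −1.80 for Fbln5, −5.52 for Bcan and 1.30 for Col3a1. At 14 days alone 1 member was past 2-fold upwards (0.931%) and 1 downwards (0.603%). Dcn was 5.43 (3.34–9.28) times higher, with 20, 23 and 99 UMIs of which 22 lay in 1 cell, and Tnc was at 0.42 (0.25–0.691) times. Dcn is the leading transcript of fibroblast-like cells, which were more numerous in the 14-day library, and the part of free RNA or of mixed droplets in this value was not tested.

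In myelinating Schwann-like cells 1 of 36 members was higher on both days (0.343% of all genes) and 0 were lower (0.208%). The member was Postn, at 1.66, 5.43 and 5.18 CPM from 6, 24 and 32 UMIs, with ratios of 3.27 (1.30–9.79) and 3.12 (1.29–9.14). Immune-like cells had 3.28, 2.32 and 22.4 CPM of Postn, which is above the myelinating Schwann-like level in the naïve and 14-day libraries and below it at 7 days. The call was lost with each cell counted equally and with 10 CPM added. The summed members were at 1.13 (1.12–1.15) and 1.09 (1.07–1.10) times the naïve level. Ogn had the largest share in this, being at 1.41 (1.37–1.45) and 1.36 (1.32–1.40) times on the days after injury. At 7 days alone 4 of the 36 members were at least 2-fold higher (0.678%), Postn among them. Col3a1 was at 2.09 (1.81–2.41) times and Col27a1 at 2.17 (1.65–2.87) times, and at 14 days they were at 1.23 and 1.80 times. Col8a1 also passed 2-fold at 7 days, with 1.93 CPM in the naïve library and 4.97 CPM at 7 days. Fbln5 was lower on both days, at 0.703 and 0.733 times.

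In non-myelinating Schwann-like cells 1 of 31 members was higher on both days (1.39% of all genes) and 0 were lower (1.16%). It was Ogn, which had 19.1, 86.9 and 90.9 CPM from 6, 19 and 60 UMIs, and ratios of 4.56 (1.75–13.9) and 4.77 (2.07–13.5). Ogn is the second most abundant member of myelinating Schwann-like cells in these libraries, at more than 2000 CPM, and markers of that class summed to 4311, 4278 and 3484 CPM in the non-myelinating class. At 14 days alone 7 of the 31 members were at least 2-fold higher, against 3.76% of all genes. These were the fibrillar collagen chains Col1a1 and Col5a2, Col18a1, Col6a1, Ogn, Tnc and Postn. Col1a1 went from 413 and 275 CPM to 1227 CPM, a ratio of 2.97 (2.47–3.6) at 14 days, and Postn from 184 and 220 CPM to 727 CPM, a ratio of 3.95 (3.00–5.28). Tnc had 41.3, 9.15 and 386 CPM from 13, 2 and 255 UMIs, which is 0.222 (0.0242–0.982) times at 7 days and 9.36 (5.37–17.8) times at 14 days. At 7 days, with 85 cells, Tnc was therefore the 1 member past 2-fold downwards (6.01% of all genes), and Col1a1 was at 0.665 times. Without the cell filter the log2 ratio of Tnc at 7 days was 0.76. Col5a2 was at 232, 215 and 494 CPM, and Col6a1 at 15.9, 18.3 and 56.1 CPM. Sparcl1 was at 0.563 (0.486–0.652) times at 14 days. The summed members were at 1.07 (1.02–1.12) and 1.24 (1.20–1.29) times.

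The cells that held these transcripts at 14 days were examined next. Cells with at least 2 Tnc UMIs, a limit chosen after the values were seen, numbered 3 of 160 in the naïve library (1.88%, exact 95% interval 0.388–5.38), 0 of 85 at 7 days (interval up to 4.25%, and 3.53% by the limit of 3 counts), and 21 of 184 at 14 days (11.4%, interval 7.21–16.9). The cells of the class had medians of 1816.5, 2304 and 2857.5 UMIs in the 3 libraries, so the chance of finding 2 Tnc UMIs differed between them. The shares were not recomputed at equal depth. Their intervals treat the cells of 1 library as independent and do not cover differences between animals. At 14 days the 21 cells had a median of 6039 UMIs, against 2703 in the other cells of the class. They held 75.9% of the Col1a1 UMIs of the class, 75.4% of Postn, 67.6% of Col6a1, 57.4% of Col5a2 and 56.5% of Col18a1, and their share of Tnc follows from how they were chosen. Within them Col1a1 was at 4489 CPM, Col1a2 at 4416 CPM, Postn at 2643 CPM and Tnc at 1818 CPM. Summed over these cells, Col1a1 was thus close to its level in fibroblast-like cells. The cells differed widely, however. Of the 810 Col1a1 UMIs of the class, 145 lay in 1 of these cells and 123 in another, while some of them had 0 UMIs of Col1a1 or of Postn. Of the leading genes of fibroblast-like cells, Dcn was at 14.6 CPM and Fn1 at 0 UMIs in the same cells, while Apod was at 1840 CPM, against 122 CPM in the other cells of the class. All 7 fibroblast markers used for the classes had 0 UMIs, but the rule that placed these cells also required a lower fibroblast score. The glial genes Sox10 (416 CPM) and Ngfr (1423 CPM) were present, Ngfr being 1 of the markers that defined the class. Scn7a, another of these markers, was at 1066 CPM against 2547 CPM in the other cells, and Fabp7 at 204 CPM against 1333 CPM. Without these cells the 14-day log2 ratio was −0.04 for Col1a1, 0.32 for Col5a2 and 0.79 for Postn. Among immune-like cells 0 of 119, 0 of 277 and 1 of 374 had at least 2 Tnc UMIs, and that 1 cell held 26 of the 28 Tnc UMIs of its class. Such cells numbered 8 of 653, 6 of 381 and 3 of 484 in the SGC-like class. Of the cells that fitted no class, 2 of 366, 7 of 278 and 2 of 497 had at least 2 Tnc UMIs. Whether the class rule left cells of this kind unassigned at 7 days was not tested.

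**Figure D4:**
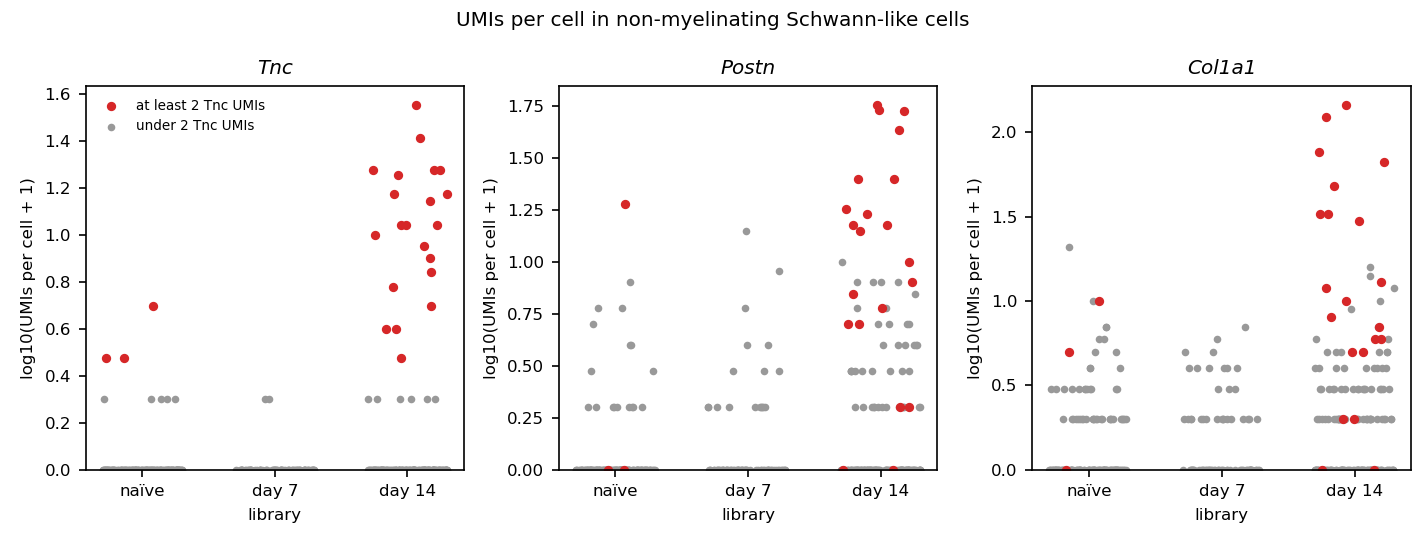
UMIs of Tnc, Postn and Col1a1 per cell, as log10 of UMIs plus 1, in non-myelinating Schwann-like cells of the naïve, 7-day and 14-day library. Each point is 1 cell and red points are cells with at least 2 Tnc UMIs (3, 0 and 21 cells). In the 14-day library several red points also lie high for Postn and Col1a1, and others have 0 or 1 UMI of these genes.

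In fibroblast-like cells 3 of 39 members were higher on both days (4.02% of all genes) and 1 was lower (1.53%). Vcan was at 169, 374 and 410 CPM, from 28, 83 and 256 UMIs, with ratios of 2.22 (1.43–3.54) and 2.43 (1.64–3.73). Col11a1, a minor fibrillar chain that nucleates fibrils, was at 169, 365 and 347 CPM, with ratios of 2.17 (1.39–3.46) and 2.06 (1.39–3.17). The third was Postn, at 6.02, 18.0 and 64.0 CPM, which rests on 1, 4 and 40 UMIs with 18 of the 40 in 1 cell. Fbln1 was lower, at 415, 158 and 120 CPM from 69, 35 and 75 UMIs, with ratios of 0.381 (0.247–0.58) and 0.289 (0.206–0.407), and its UMIs lay in 11, 10 and 28 cells. With the stricter cell filter the log2 ratio of Fbln1 at 7 days was −0.66. The number of higher members was 0 under a stricter cell filter (4.27% of all genes), a wider margin between classes (4.01%) and clusters in place of marker classes (2.88%). Vcan and Col11a1 nevertheless stayed above the naïve level under every alternative computed for them. Below 2-fold, Fn1 was at 1.88 (1.51–2.36) and 1.73 (1.42–2.13) times, Col3a1 at 1.46 (1.33–1.59) and 1.34 times, and Col8a1 at 1.88 and 1.64 times. The main proteoglycan Dcn was at 1.09 and 1.09 times, Col1a1 at 1.13 and 1.10 times and Col1a2 at 1.10 and 1.19 times. Ogn was at 0.744 and 0.63 times. The median log2 ratio over the 39 members was 0.29 at 7 days and 0.25 at 14 days, with 30 of 39 above 0 on each day, against medians of −0.02 and −0.01 over all genes, and the summed members were at 1.19 (1.16–1.22) and 1.15 (1.12–1.18) times the naïve level. Marker genes of the class differed between the libraries as well. Pi16, a marker of adventitial fibroblasts, was at 217, 45.1 and 411 CPM, Dpep1 at 355, 162 and 147 CPM, and the summed endothelial markers at 90.3, 85.6 and 523 CPM, and their part in the member ratios was not tested.

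**Figure D5:**
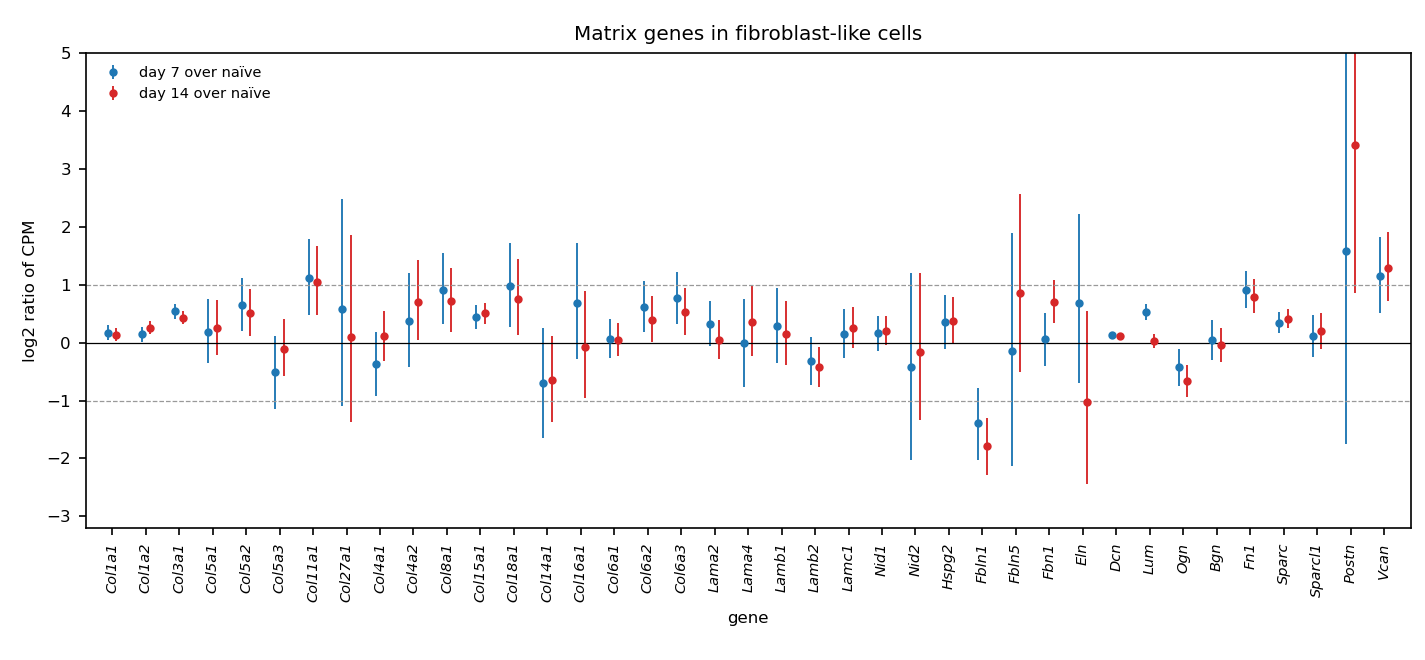
Log2 ratio of CPM over naïve in fibroblast-like cells at 7 and 14 days for the 39 members with at least 30 UMIs, with 95% counting intervals. Vcan and Col11a1 lie above 1 and Fbln1 below −1 on both days, and the intervals of Postn, from 1 naïve UMI, run beyond the axis.

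In mural-like cells 1 of 30 members was higher on both days (1.53% of all genes) and 0 were lower (0.353%). That member was Dcn, at 16.5, 93.7 and 35.2 CPM from 7, 46 and 26 UMIs, and 43 of the 46 UMIs at 7 days lay in 1 cell, without which the log2 ratio at 7 days was −1.20. At 7 days alone 3 members were higher (3.34%), Dcn with Col1a1 (16.5, 40.7 and 8.12 CPM) and Col8a1 (16.5, 38.7 and 31.1 CPM), and 1 was lower (2.87%), Lamb1 (37.6, 14.3 and 21.6 CPM). The leading genes Sparcl1, Sparc and Col4a1 did not reach 1.5-fold in either direction on either day, and the summed members were at 0.954 (0.914–0.996) and 0.984 (0.946–1.02) times. In endothelial-like cells 1 of 30 members was higher (0.879%) and 0 were lower (0.312%). It was Ogn, at 12.5, 36.1 and 31.0 CPM from 22, 57 and 85 UMIs, of which up to 38 at 7 days lay in 1 cell, and immune-like cells had 9.83, 37.2 and 45.5 CPM of Ogn. Without the cell with the most Ogn UMIs it no longer passed 2-fold on both days. At 14 days alone 5 of the 30 were at least 2-fold higher (2.1%), namely Col1a1, Col1a2, Col16a1, Dcn and Ogn, which were all at or under 43.0 CPM, and 51 of the 118 Dcn UMIs lay in 1 cell. At 7 days Ogn and Col15a1 were higher (1.58%), and Col5a2 and Bgn were lower (1.44%). Of these, Bgn was at 64.2, 20.9 and 32.1 CPM. Fn1, below 2-fold, was at 1.74 and 1.87 times. The summed members of endothelial-like cells were at 0.948 (0.923–0.975) and 0.911 (0.889–0.934) times.

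By role, the laminins moved little in the 6 described classes. Their summed CPM stayed between 0.94 and 1.08 times the naïve level there on both days. In the comparison classes it was at 1.65 and 1.65 times in neuron-like and 1.20 and 1.63 times in immune-like cells. The fibrillar collagens summed to 15243, 18824 and 18601 CPM in fibroblast-like cells and to 3825, 3948 and 5617 CPM in non-myelinating Schwann-like cells, where the ratio at 14 days was 1.47 (1.38–1.57). The small leucine-rich proteoglycans of myelinating Schwann-like cells, which are mostly Ogn, went from 2149 to 2990 and 2898 CPM.

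The enzymes, proteases, receptors and signals that act on these genes were counted from 5 further lists of 84 genes in all, with 16 genes of collagen biosynthesis and crosslinking, 15 matrix proteases and inhibitors, 20 matrix receptors, 19 other collagens and 14 ligands, receptors and targets of TGF-beta. In SGC-like and in myelinating Schwann-like cells 0 of 60 tested genes were past 2-fold on both days. Over all genes, 0.266% were higher and 0.16% lower in SGC-like cells, and 0.343% and 0.208% in myelinating Schwann-like cells. In fibroblast-like cells 4 of 56 were higher (4.02% of all genes) and 1 lower (1.53%). Crtap, a component of the complex that hydroxylates collagen prolines, was at 42.1, 113 and 136 CPM, and Mmp14, a membrane-bound matrix metalloproteinase, at 120, 248 and 250 CPM. Timp1, an inhibitor of metalloproteinases, had 1, 9 and 29 UMIs, and Col2a1, the chain of cartilage collagen, was at 36.1, 122 and 106 CPM. Ctgf, a secreted target of TGF-beta signalling, was lower at 138, 49.6 and 28.8 CPM. In non-myelinating Schwann-like cells 1 of 44 was higher (1.39% of all genes). It was the TGF-beta-induced matrix gene Tgfbi with 0, 3 and 45 UMIs, of which the 21 cells described above held 71.1% at 14 days. In mural-like cells 1 of 49 was higher (1.53% of all genes), the hyaluronan receptor Cd44 at 9.40, 30.6 and 21.7 CPM. The 1 lower gene (0.353%) was the laminin and collagen receptor Adgrg6 at 40.0, 12.2 and 18.9 CPM. In endothelial-like cells 1 of 49 was higher (0.879% of all genes), Ltbp1, whose product binds latent TGF-beta, at 2.84, 6.96 and 7.29 CPM.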

How the data were processed

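RNA of dissociated DRG cells was measured in 3 libraries. The deposited values are raw UMI counts in sparse matrices that list the barcodes the authors called as cells, and the labels name mm10 and Cell Ranger 3.0.2. The annotation, strand use and any downsampling are not given in the sources used here. The members and all lists were chosen with earlier results of these data known.

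Cells needed 500 genes or more and no more than 20% mitochondrial UMIs, and doublets called by Scrublet (scanpy 1.11.5, expected rate 5%) were removed. Each marker was taken as log of counts per 10000, scaled over all cells and averaged by class, and a cell joined the class with the highest mean if it led the next by 0.5 and had UMIs of at least 2 markers. Class names are rebuilt, so the authors' own may differ, and their annotated object was not used here. Counts were summed per class and library (numpy 2.4.6, pandas 2.3.3) and given as CPM, with exact Poisson, Clopper-Pearson or conditional binomial intervals (scipy 1.17.1) at 95% for counting error only. The fold rule used a pseudocount of 1 CPM and at least 30 UMIs. It was tested on simulated data, where it missed more lowered than raised genes and most so in the smaller classes. It also called some unchanged genes there from counting error alone. Their share was largest in fibroblast-like cells, then in mural-like and non-myelinating Schwann-like cells, and smallest in SGC-like and myelinating Schwann-like cells. Described in full were the 3 members highest in each class, members past 2-fold on both days, and list genes past the same fold. Other genes were chosen after their values were seen. Promoter windows come from RefSeq on GRCm38.p6, where 31 members had at least 1, and gene positions from GENCODE. Of the members, 14 overlap an antisense gene. Alternatives covered the cell filter, doublets, class rules, clusters, scaling, pseudocount, count minimum and fold.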

Additional observations from a re-analysis of the deposited data

Results flagged for a closer look

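Tnc in non-myelinating Schwann-like cells had ratios of opposite direction on the days after injury, with a log2 ratio over naïve, 1 CPM added, of −2.06 at 7 days and 3.20 at 14 days. The 7-day value rests on 2 UMIs in 85 cells, and the difference between the days was not tested because each day has 1 library.

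The cells that fitted no class were used in no comparison, yet carried the members at 12241 CPM in the naïve library, 11841.1 CPM at 7 days and 12785.3 CPM at 14 days. These levels lie between those of SGC-like and non-myelinating Schwann-like cells in the naïve library.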

How the results depend on the processing

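No paired analysis was possible because there is only 1 library for each condition, which also means that none could be left out. Of 231 recomputed counts of members, 184 stayed within 1.5 times the reported count and 47 did not. Of 812 recomputed ratios of single genes, 722 stayed within the reported counting interval, 81 moved and 9 that were at least 2-fold turned direction. Turns of smaller ratios were not counted apart. Fbn1 in fibroblast-like cells at 14 days, for example, was at −0.15 under a stricter filter and was counted as moved. Vcan (log2 ratios from 0.57 to 2.42) and Col11a1 (from 0.65 to 1.17) in fibroblast-like cells stayed above 0 on both days under all 9 alternatives computed for them, and Fbln1 (from −2.21 to −0.66) stayed below 0.

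With a filter of 1000 genes or more and no more than 10% mitochondrial UMIs, which left 137, 20 and 16 SGC-like and 32, 22 and 56 fibroblast-like cells, 1 member was always highest in SGC-like, 3 in mural-like and 2 in endothelial-like cells. On both days 4 members were then higher in SGC-like cells (0.771% of all genes), 0 in fibroblast-like (4.27%) and 0 in mural-like cells (2.68%). In endothelial-like cells 2 were higher (0.629%) and 1 was lower (0.379%). Under that filter Postn in fibroblast-like cells was at −0.25 on the log2 scale at 7 days, and the summed members were at −0.0359 and 0.42 in SGC-like cells at 7 and 14 days, 0.13 in myelinating Schwann-like cells at 7 days, −0.0015 and 0.46 in non-myelinating Schwann-like, 0.12 and 0.0276 in fibroblast-like and −0.25 and −0.26 in mural-like cells. Without a filter 2 members were higher in non-myelinating Schwann-like cells (1.69% of all genes), and Tnc there was at 0.76 at 7 days. The fibroblast-like sum was then 0.15 at 14 days. With doublets kept 2 members were higher (0.654%) and 3 lower (0.337%) in endothelial-like cells, and the SGC-like sum was 0.0273 at 14 days.

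With a class margin of 1 the members higher on both days were 2 in myelinating (0.476% of all genes) and 2 in non-myelinating Schwann-like cells (1.58%). There were 0 in fibroblast-like (4.01%) and 0 in mural-like cells (1.56%). Dcn in mural-like cells then had −1.42 at 7 days, and the sums were −0.0204 in SGC-like cells at 14 days, 0.14 in myelinating Schwann-like cells at 7 days, 0.50 in non-myelinating Schwann-like cells at 14 days, and 0.17 and 0.12 in fibroblast-like cells. With at least 3 markers 1 was higher (6.35%) and 2 lower (2.13%) in fibroblast-like cells and 0 higher in mural-like cells (1.66%). Dcn in mural-like cells was then at −1.42 at 7 days, and the fibroblast-like sum was 0.12 at 14 days. With Leiden clusters in place of marker classes 0 were higher in myelinating Schwann-like (0.268%), 0 in fibroblast-like (2.88%) and 0 in mural-like cells (1.56%). At 7 days Postn in fibroblast-like cells was then at −0.0686 and Dcn in mural-like cells at −1.43. The sum in non-myelinating Schwann-like cells was 0.18 at 7 days. With each cell counted equally 0 were higher in myelinating Schwann-like (0.461%), 0 in mural-like (2.25%) and 0 in endothelial-like cells (1.35%). The sums were then 0.0348 in SGC-like cells at 14 days and 0.16 and 0.0911 in myelinating Schwann-like cells. They were 0.22 in non-myelinating Schwann-like cells at 14 days, and 0.17 and 0.13 in fibroblast-like cells. The cause of these shifts was not tested. Among single genes, Col27a1 in myelinating Schwann-like cells reached 2.22 at 7 days with the class margin of 1, and Fbn1 in fibroblast-like cells was at −0.78 and −0.15 under the stricter filter.

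Median-ratio scaling gave 1 lower member in endothelial-like cells (0.352% of all genes). A pseudocount of 0.1 CPM gave 2 higher in myelinating Schwann-like cells (0.823%). With 10 CPM there were 0 in myelinating Schwann-like (0.00904%), 0 in mural-like (0.353%) and 0 in endothelial-like cells (0.00976%). A minimum of 10 UMIs gave 3 in non-myelinating Schwann-like (3.9%) and 2 in endothelial-like cells (1.62%). With 100 UMIs there were 0 in myelinating (0.0867%) and non-myelinating Schwann-like cells (0.392%) and 0 in mural-like cells (0.313%). A 1.5-fold limit gave 2 higher in SGC-like (1.66%) and 3 in myelinating Schwann-like cells (2.01%). It also gave 3 higher in non-myelinating Schwann-like cells and 6 higher and 2 lower in fibroblast-like cells. In mural-like cells 3 and 1 passed, and in endothelial-like cells 4 and 2. The shares over all genes in these last 4 classes are not given here. Members at least 2 times above their immune-like CPM gave 0 in non-myelinating Schwann-like and 0 in endothelial-like cells.

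Some alternatives were chosen after seeing the data. Without the 1 cell that held most UMIs of a gene, 0 members were higher in mural-like cells, with −1.20 for Dcn at 7 days, and 0 in endothelial-like cells. Without the cells with at least 2 Tnc UMIs, non-myelinating Schwann-like cells at 14 days had −0.51 for Tnc, −0.0351 for Col1a1 and 0.0157 for the summed members. The value of Tnc is set by that choice of cells. No alternative at another depth was run.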

Other observations

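Neuron-like cells had low levels of the members, with summed values of 335.7, 632.1 and 603.5 CPM in the naïve, 7-day and 14-day library. Among them, Col5a3, a chain of type V collagen, was at 17.3, 68.0 and 71.4 CPM from 146, 449 and 905 UMIs, while immune-like cells had 13.1, 8.52 and 13.1 CPM. Col5a3 was named after its values were seen. Its log2 ratio over naïve stayed between 1.92 and 2.77 at 7 days and between 1.67 and 2.39 at 14 days under 9 alternatives. The neuron-like cells of the 7-day library were shallow, with a median of 2000.5 UMIs against 63909 in the naïve and 77625 in the 14-day library, and 82 of the 449 UMIs at 7 days lay in 1 cell.

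The cells with at least 2 Tnc UMIs in the non-myelinating Schwann-like class at 14 days also carried the injury-related genes Runx2 at 1058 CPM, Atf3 at 591 CPM, Gap43 at 693 CPM and Gdnf at 234 CPM, and the metalloproteinase inhibitor Timp1 at 496 CPM. These genes were chosen after their values were seen. Their levels in the other cells of the class are not given here, so no difference from those cells is shown.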
